A study of Homo sapiens with 26 samples.

Results

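HHLA2 (also called B7-H7) is a ligand of the B7 family, the immunoglobulin-like surface proteins with which tumour and antigen-presenting cells stimulate or restrain T cells and NK cells. The 7 genes described here are HHLA2, CD274 (PD-L1), PDCD1LG2 (PD-L2), CD276 (B7-H3), VTCN1 (B7-H4), ICOSLG (the ICOS ligand) and CD80 (B7-1). They are 7 of 62778 gene identifiers over the 3 count tables, and all 7 had a row in each table. The members were chosen by family membership. HHLA2 was treated as selected on its rise when HNF4A was induced. Its levels in the induced lines are therefore given as a description with no test.

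The study measured poly(A) RNA in 26 libraries of 3 established human cell lines of pancreatic ductal adenocarcinoma in which HNF4A, an endodermal nuclear receptor made from an upstream (P2) and a downstream (P1) promoter, was induced or repressed. The labels do not say which promoter drove the introduced HNF4A, or whether a culture was 1 clone or a pool. Panc10.05 cells received 25 ng/mL doxycycline to induce the HNF4A isoform P1-a2, 12.5 ng/mL to induce P2-a8, or 25 ng/mL in a control labelled GFP (NC). BxPC3 cells received 500 ng/mL doxycycline in every group, with P1-a2, P2-a8 or a control labelled EV (NC). Each of these 6 groups had 2 libraries. ASPC1 cells carried CRISPR interference guides against the P1 promoter (sgP1E and sgP1J), the P2 promoter (sgP2D and sgP2G) or both (sgDual2 and sgDual3), or a control guide (sgNC), with 2 libraries per guide and no doxycycline dose in the labels. Guides against the same target are grouped here as sgP1, sgP2 and sgDual, with 4 libraries each against 2 of sgNC. The comparisons ask how the B7 ligands of these cells differ with HNF4A, with its isoform and with the guide used to repress it.

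B7 proteins signal through receptors on lymphocytes. CD274 and PDCD1LG2 bind PD-1, CD80 binds CD28 and CTLA-4, ICOSLG binds ICOS, and HHLA2 binds TMIGD2 as a stimulator and KIR3DL3 as an inhibitor. No lymphocyte receptor has been assigned to CD276 and VTCN1 with general agreement. Interferon-gamma acting through JAK kinases and IRF1 is the best known inducer of CD274. HHLA2 RNA is normally found in gut and kidney epithelium and in several carcinomas.

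HHLA2 (ENSG00000114455) lies on the plus strand of chromosome 3 at 108296490 to 108378285 (GRCh38, GENCODE v29, 11 transcripts). The promoter windows below run from 250 bases before to 50 bases after a RefSeq start (GRCh38.p14), and 6 of the 7 members had at least 1 such window. PDCD1LG2 had none. They are shown for HHLA2, the member with the greatest range over the groups, and for CD274, the PD-1 ligand called in both induced lines. Capitals mark AAAGTCCA (or TGGACTTT, its form on the other strand), the HNF4 motif CAAAGTCCA without its first base, and TTCNNNGAA, the palindrome of the gamma-activated sites of interferon-gamma responses.
HHLA2, plus strand, chr3:108296298-108296597: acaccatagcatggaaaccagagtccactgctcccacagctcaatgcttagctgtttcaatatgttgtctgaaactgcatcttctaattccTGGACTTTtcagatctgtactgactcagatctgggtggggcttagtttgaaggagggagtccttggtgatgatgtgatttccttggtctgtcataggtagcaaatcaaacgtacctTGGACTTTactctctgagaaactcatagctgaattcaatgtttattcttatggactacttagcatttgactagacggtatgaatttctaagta
CD274, plus strand, chr9:5450292-5450591: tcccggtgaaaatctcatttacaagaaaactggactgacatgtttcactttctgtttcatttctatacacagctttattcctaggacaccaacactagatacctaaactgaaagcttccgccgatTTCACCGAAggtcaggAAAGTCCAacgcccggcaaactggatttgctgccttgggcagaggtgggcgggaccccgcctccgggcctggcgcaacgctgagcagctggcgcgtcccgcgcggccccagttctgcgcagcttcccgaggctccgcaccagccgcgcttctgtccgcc
The complete motif CAAAGTCCA, searched on both strands, was in neither window and in 0.384% of 35116 RefSeq promoters. The shorter AAAGTCCA was searched after the HHLA2 letters had been seen. It occurred at 2 places in this HHLA2 window, beginning 159 and 43 bases before the start, and not in the other 2 of the 3 HHLA2 windows. It occurred at 1 place in the CD274 window, 109 bases before the start. Of all promoters, 1.14% held at least 1 such match and 0.0342% held 2 or more. CD274 also held 1 TTCNNNGAA, beginning 125 bases before the start, a pattern found in 7.66% of promoters. CAAAGGTCA, another common spelling of the HNF4 motif, was found in no member and in 0.407% of promoters. These are matches of letters only, and binding was not measured.

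HNF4A was first read as the check of the labels. In CPM (counts scaled to equal effective library totals) its RNA stood at 0.240 and 0.0579 in Panc10.05 NC, 10.7 and 12.97 in P1-a2, and 37.6 in both P2-a8 libraries. In BxPC3 it stood at 1.08 and 0.464 in NC, 9.75 and 11.6 in P1-a2, and 12.6 and 14.2 in P2-a8. In ASPC1 the means were 213 CPM in sgNC, 129 in sgP1, 86.4 in sgP2 and 7.99 in sgDual. Every induced library lay above its controls and every guide library below its controls. The fall in ASPC1 passed the test for sgDual (log2 fold change (log2FC) -4.73, SE 0.39, adjusted p = 6.25e-06 in edgeR's quasi-likelihood fit) but not for sgP1 (-0.72, SE 0.36, adjusted p = 0.615) or sgP2 (-1.30, SE 0.36, adjusted p = 0.0751). Gene-level counts do not separate the isoforms or the introduced copy from the cell's own transcript. Library totals ran from 26079388 to 50662077 counts, so 3 counts corresponded to 0.0585 to 0.116 CPM. Epithelial markers (EPCAM, KRT8, KRT18, KRT19, CDH1) summed to between 4669 and 18018 CPM, and the 8 immune markers to at most 3.47 CPM, with MS4A1 and NCR1 at 0 counts in every library. The 8 fibroblast and endothelial markers summed to at most 7.41 CPM in Panc10.05 and 24.5 CPM in BxPC3. In ASPC1 they summed to between 131 and 300 CPM, most of it LUM (mean 171 CPM in sgNC and 285 CPM in sgDual). In bulk libraries, fewer cells making an RNA and less RNA per cell cannot be told apart.

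HHLA2 was almost silent in both control groups of the induced lines and was abundant when P1-a2 was induced. In Panc10.05 NC it had 1 and 0 counts. P1-a2 gave 67.2 and 69.9 CPM (2618 and 3215 counts), and P2-a8 gave 27.7 and 29.1 CPM (1299 and 1032 counts). Set against a floor of 3 counts per control library, the mean was at least 862-fold higher with P1-a2 and at least 357-fold higher with P2-a8. The P1-a2 libraries stood 2.41-fold above the P2-a8 libraries, while HNF4A RNA was lower in the P1-a2 libraries (log2FC -1.66, SE 0.10, adjusted p = 4.39e-17 in edgeR's quasi-likelihood fit). The doxycycline dose and the isoform changed together here and cannot be told apart.

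In BxPC3, where every group had the same dose, the isoforms stood further apart. HHLA2 had 2 and 3 counts in NC, 42.9 and 56.3 CPM in P1-a2, and 3.77 and 4.22 CPM in P2-a8. With the floor of 3 counts set for each control library, P1-a2 was 513-fold higher and P2-a8 41.3-fold higher. The observed 2 and 3 counts were near that floor, so these folds are not lower bounds. P1-a2 was 12.4-fold above P2-a8, with the library-to-library ratios between 10.2 and 14.9. HNF4A RNA did not pass the test between these groups in BxPC3 (log2FC -0.33, SE 0.17, adjusted p = 0.217 in edgeR's quasi-likelihood fit). HHLA2 did not overlap between any groups of the same induced line. The sum of the epithelial markers moved with induction too, at 4669 to 4688 CPM in Panc10.05 NC, 6647 to 7694 CPM in P1-a2 and 8143 to 8489 CPM in P2-a8. The markers did not all rise with P1-a2 there. CDH1 fell from 153 to 100 CPM, while 3 of the 5 markers were called higher. In BxPC3 their sums were 5696 to 6121 CPM in NC, 8633 to 9077 CPM in P1-a2 and 7213 to 7257 CPM in P2-a8. Their part in the HHLA2 levels was not tested.

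**Figure D1:**
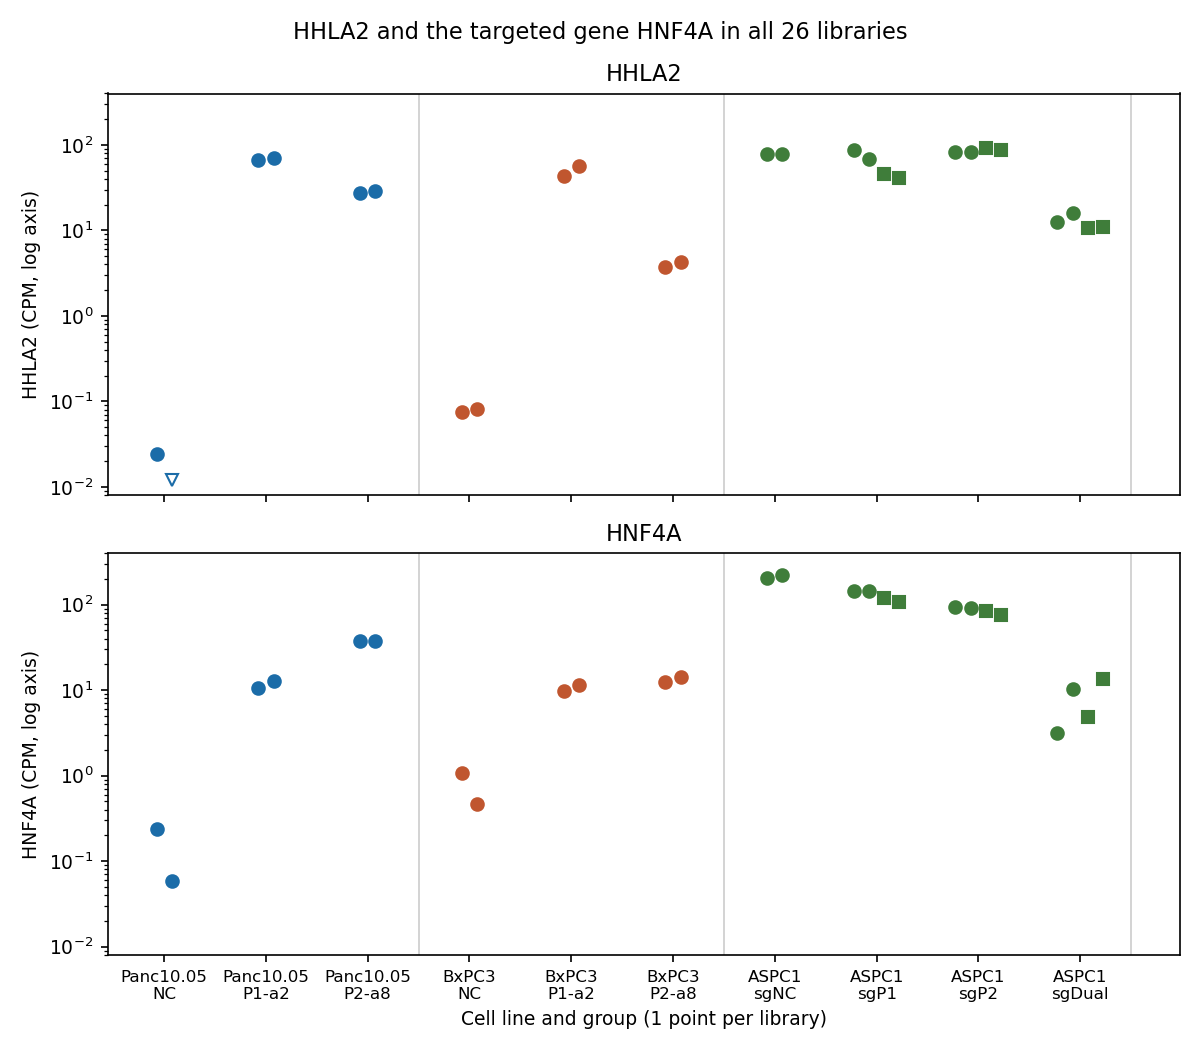
CPM of HHLA2 (upper panel) and HNF4A (lower panel) on log axes in each of the 26 libraries, by cell line and group. In ASPC1 squares mark the later-named guide of each target (sgP1J, sgP2G, sgDual3) and circles all other libraries. The open triangle is the Panc10.05 control library with 0 HHLA2 counts, drawn at the bottom of the axis. HHLA2 was at or below 0.0819 CPM in the 4 control libraries of the induced lines and at 78.4 CPM or more in those of ASPC1.

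In ASPC1, which makes HNF4A on its own, HHLA2 was the most abundant of the 7 members per length of exon in the control cells and fell with the guides against both promoters. HHLA2 was treated as chosen by its rise in the induced lines, so the ASPC1 libraries were tested. Their results were known when the members were chosen, so this test is not independent of that choice. The sgNC libraries had 78.9 and 78.4 CPM. The sgDual2 libraries had 12.5 and 15.8 CPM and the sgDual3 libraries 10.8 and 10.9 CPM, all below every other ASPC1 library. The group mean was 15.9% of the control mean (log2FC -2.65, SE 0.25, adjusted p = 9.09e-06, edgeR quasi-likelihood test). HNF4A itself was at 3.76% of control in the same libraries. The call held under all 14 alternatives tried, with adjusted p between 2.95e-26 and 0.000391. Of all genes tested in this comparison 35.6% passed, and 2 of the 3 members tested did.

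With guides against 1 promoter the HHLA2 means lay at 77.8% (sgP1) and 109.9% (sgP2) of control, and the sgP1 guides split. The sgP2D libraries had 83.8 and 81.7 CPM and the sgP2G libraries 93.3 and 86.9 CPM, slightly above both controls, with HNF4A at 40.7% of control. The difference from sgNC did not pass (log2FC 0.14, SE 0.25, adjusted p = 0.836). The sgP1E libraries had 88.4 and 69.0 CPM, on either side of the controls. The sgP1J libraries had 46.0 and 41.1 CPM, below both. For sgP1 as a group the log2FC was -0.36 (SE 0.25, adjusted p = 0.751), and the groups overlapped. With sgP1E left out it became -0.86 (adjusted p = 0.00487), and with sgP1J left out 0.00 (0.00404 as computed, adjusted p = 0.994). sgP2 against sgP1 gave a log2FC of 0.50 (SE 0.20, adjusted p = 0.206), which passed without sgP1E (0.99, adjusted p = 0.000143) and without sgP1E replicate 1 (0.73, adjusted p = 0.0202).

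The guides themselves were compared in a fit with 7 guide groups. HHLA2 was higher with sgP1E than with sgP1J (log2FC 0.86, SE 0.12, adjusted p = 0.000328), where 14.5% of all genes passed and 2 of 3 members did. HNF4A did not pass between them, at 68.1% of control with sgP1E and 53.4% with sgP1J (log2FC 0.35, SE 0.41, adjusted p = 0.627). The epithelial markers summed to 8292 to 9929 CPM with sgP1E and 16217 to 18018 CPM with sgP1J, against 14291 to 14583 CPM in sgNC. Their part in the HHLA2 difference was not tested. The guides of the other targets did not split any member: 0 of 3 members passed between sgP2D and sgP2G (0 at an unadjusted p under 0.05; 1.69% of all genes passed). Between sgDual2 and sgDual3 also 0 of 3 passed by edgeR, with 1 at an unadjusted p under 0.05, which was HHLA2 (log2FC 0.39, SE 0.13, adjusted p = 0.332; 0.883% of all genes passed). DESeq2 was not run for guides.

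**Figure D2:**
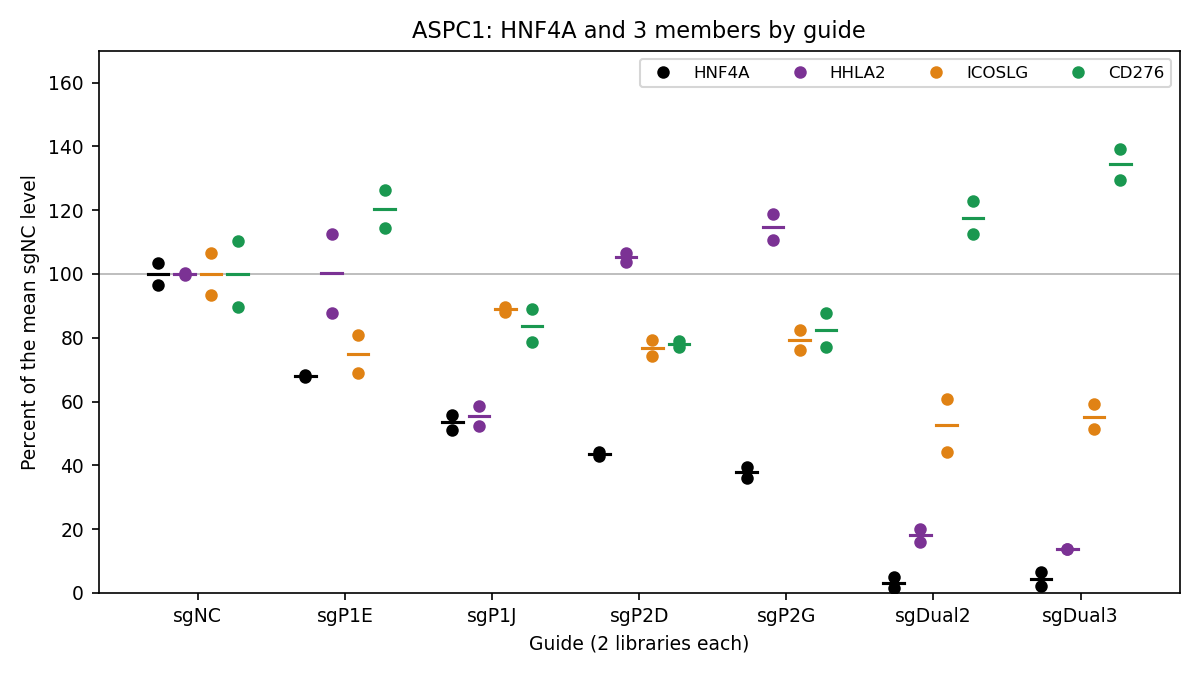
Level of HNF4A, HHLA2, ICOSLG and CD276 in each ASPC1 library as a percentage of the mean of the 2 sgNC libraries, by guide. Points are libraries and short bars are means of 2. HHLA2 ranged from 52.3% to 58.6% with sgP1J and from 87.8% to 113% with sgP1E, and was at or below 20.1% with both dual guides.

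The 5 genes whose level was most like that of HHLA2 were EPS8L3 (Pearson r = 0.980), SLC7A7 (0.976), TM4SF5 (0.973), TRIM15 (0.970) and EPDR1 (0.969). The measure was the correlation of log2 CPM over all 26 libraries after each line's mean had been removed, so it is carried by the HNF4A groups that these libraries share, and it is a description. Of 14523 genes tested in all 3 tables, HHLA2 itself included, 1.96% reached r of 0.8 or more, and HNF4A ranked 138 with 0.855. TM4SF5, a tetraspanin-like membrane protein, had 0.0145 CPM in Panc10.05 NC, 1.67 with P1-a2 and 1.157 with P2-a8. In BxPC3 it had 0.0322, 5.12 and 0.872 CPM, and in ASPC1 24.7 CPM in sgNC against 5.90 in sgDual. SLC7A7, a subunit of an amino acid transporter, differed from HHLA2 in the order of the Panc10.05 groups, with 5.27 CPM in P1-a2 and 7.44 in P2-a8.

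MYH15, a myosin heavy chain gene whose nearest end lies 2084 bases beyond HHLA2, rose with it in the induced lines. Its mean was 5.02 CPM in Panc10.05 NC, 22.8 with P1-a2 (log2FC 2.19, SE 0.12, adjusted p = 1.27e-19) and 14.8 with P2-a8 (1.55, SE 0.12, adjusted p = 6.04e-14). In BxPC3 it was 0.629, 4.23 and 1.67 CPM (adjusted p = 4.65e-05 and 0.0288 against NC). In ASPC1 it was 39.4 CPM in sgNC and 26.4 in sgDual (log2FC -0.58, SE 0.19, adjusted p = 0.0305). IFT57, an intraflagellar transport gene 73920 bases on the other side, went the opposite way with P1-a2, from 50.5 to 28.5 CPM in Panc10.05 (log2FC -0.83, adjusted p = 7.26e-13) and from 36.2 to 29.7 CPM in BxPC3 (-0.29, adjusted p = 0.0104). In ASPC1 sgDual it did not pass (0.05, adjusted p = 0.674). The only annotated gene overlapping HHLA2, the pseudogene HNRNPA1P17 on the opposite strand, had 0 counts in every library.

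CD274 (ENSG00000120217, chromosome 9, 5450503 to 5470566, plus strand) was the most abundant member per length of exon in Panc10.05 and fell there with both isoforms. Its 2 NC libraries had 161 and 153 CPM. The P1-a2 libraries had 90.1 and 90.4 CPM and the P2-a8 libraries 95.1 and 90.4 CPM, all below NC. The log2FC was -0.80 (SE 0.06, adjusted p = 5.91e-15) with P1-a2 and -0.76 (SE 0.06, adjusted p = 9.86e-14) with P2-a8. The isoforms did not differ beyond their spread (-0.04, SE 0.06, adjusted p = 0.633). The P2-a8 fall of CD274 came with the lower dose of doxycycline.

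In BxPC3, CD274 had a mean of 9.01 CPM in the control cells, and its level differed between the isoforms. NC had 8.55 and 9.47 CPM, P1-a2 had 11.1 and 11.2, and P2-a8 had 6.03 and 6.36, with no overlap between groups. P1-a2 against P2-a8 passed (log2FC 0.85, SE 0.12, adjusted p = 0.00067). P1-a2 against NC did not (0.30, SE 0.12, adjusted p = 0.0714). P2-a8 against NC passed (-0.54, SE 0.12, adjusted p = 0.0219), but the call ended without P2-a8 replicate 1 (adjusted p = 0.0971), P2-a8 replicate 2 (0.0597) or NC replicate 2 (0.185). ASPC1 had 0 to 7 CD274 counts per library, too few for a test.

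PDCD1LG2 (ENSG00000197646, chromosome 9, 5510570 to 5571254, plus strand), the neighbour of CD274 on the same strand, fell furthest in Panc10.05. It had 33.4 and 33.3 CPM in NC, 5.29 and 6.15 in P1-a2, and 12.2 and 14.1 in P2-a8. The log2FC was -2.54 (SE 0.10, adjusted p = 3.05e-24) with P1-a2 and -1.35 (SE 0.09, adjusted p = 9.47e-16) with P2-a8. Here P1-a2 lay below P2-a8 (-1.19, SE 0.11, adjusted p = 3.26e-12), while CD274 beside it stood at the same level in both. Isoform, doxycycline dose and HNF4A RNA changed together between these groups and cannot be told apart. The outer neighbours of the pair fell too: PLGRKT by 0.80 on the log2 scale (adjusted p = 1.65e-09) and RIC1 by 0.74 (adjusted p = 1.01e-12) with P1-a2. In BxPC3, PDCD1LG2 stayed between 1.11 and 1.38 CPM in all 6 libraries and no comparison passed. It had 0 counts in all 14 ASPC1 libraries.

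CD276 (ENSG00000103855, chromosome 15, 73683966 to 73714518, plus strand), the member with the steadiest level across the 3 lines, fell modestly. In Panc10.05 it had 52.3 and 47.3 CPM in NC, 36.0 and 37.9 in P1-a2, and 49.2 and 49.8 in P2-a8. P1-a2 lay below NC (log2FC -0.43, SE 0.07, adjusted p = 1.34e-06) and below P2-a8 (-0.42, SE 0.07, adjusted p = 4.16e-06), which had a lower doxycycline dose. P2-a8 overlapped NC (-0.01, SE 0.07, adjusted p = 0.922). In BxPC3 it had 65.8 and 64.2 CPM in NC, 46.1 and 51.8 in P1-a2, and 49.6 and 49.7 in P2-a8. Both isoforms lay below NC there (-0.41, SE 0.07, adjusted p = 0.00103, and -0.39, SE 0.07, adjusted p = 0.00618), with no call between them (-0.02, SE 0.07, adjusted p = 0.883).

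In ASPC1, CD276 ranged from 57.8 to 104 CPM and no comparison of targets passed. The sgNC libraries had 82.6 and 67.2 CPM. The 4 sgDual libraries ran from 84.2 to 104 CPM, all above both controls (log2FC 0.33, SE 0.16, adjusted p = 0.117). With only the sgDual and sgNC libraries in the fit it passed (0.33, adjusted p = 0.0254). CD276 split the sgP1 guides in the same direction as HHLA2, with 94.6 and 85.8 CPM for sgP1E against 66.7 and 58.9 for sgP1J (0.52, SE 0.11, adjusted p = 0.00482). sgP2 against sgP1 did not pass (-0.35, SE 0.13, adjusted p = 0.147), but passed without guide sgP1J (-0.58, adjusted p = 0.00296) and without sgP1J replicate 2 (-0.45, adjusted p = 0.0485).

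**Figure D3:**
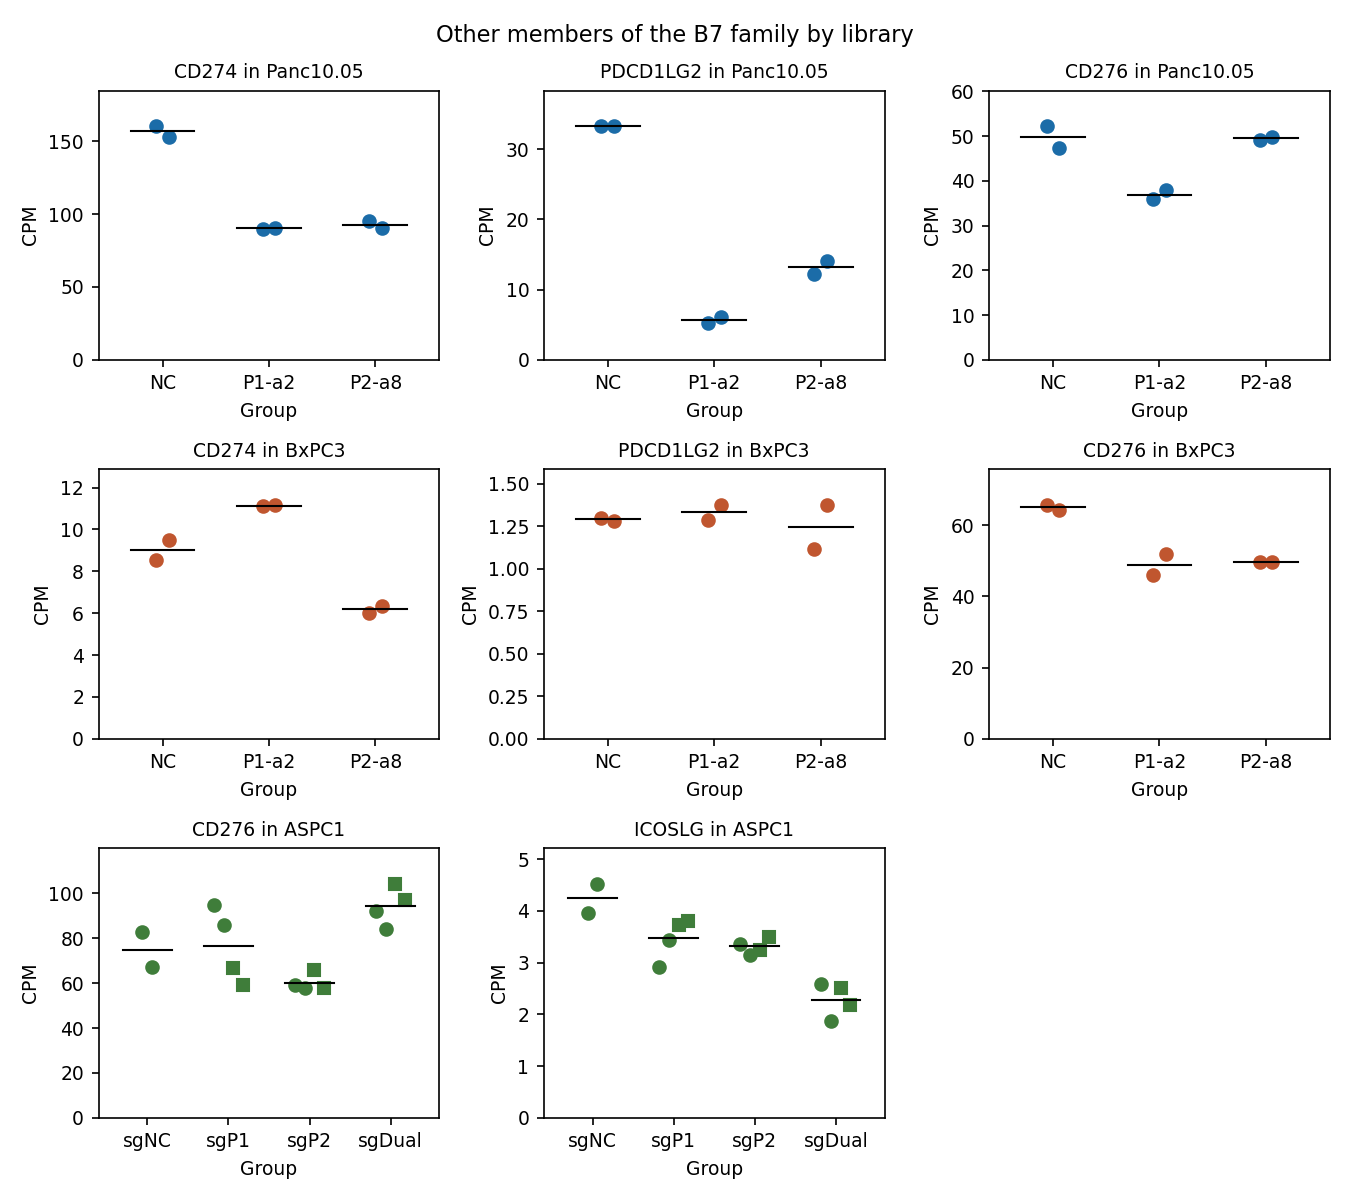
CPM of CD274, PDCD1LG2 and CD276 in Panc10.05 (blue) and BxPC3 (orange), and of CD276 and ICOSLG in ASPC1 (green), by group. Points are libraries (squares: sgP1J, sgP2G, sgDual3), horizontal bars are group means and every axis starts at 0. PDCD1LG2 fell from 33.3 to 5.72 CPM on average with P1-a2 in Panc10.05 and stayed between 1.11 and 1.38 CPM in BxPC3.

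ICOSLG (ENSG00000160223, chromosome 21, 44217014 to 44240966, minus strand) passed the filter on low counts in ASPC1 alone and fell there with the guides against both promoters. The sgNC libraries had 3.96 and 4.52 CPM. The sgDual libraries had 2.58, 1.88, 2.51 and 2.18 CPM, below all other ASPC1 libraries, with a mean of 53.9% of control (log2FC -0.89, SE 0.16, adjusted p = 0.000504). sgP1 ran from 2.92 to 3.81 CPM and sgP2 from 3.15 to 3.50 CPM, below both controls, but neither passed (adjusted p = 0.632 and 0.243). A gene model on chromosome 21, ENSG00000277117, is known as a near copy of ICOSLG. Whether the authors' counting split reads between them was not measured, so ICOSLG counts are uncertain. That copy had 80 to 89 counts in sgNC and 49 to 58 in sgDual (log2FC -0.80, SE 0.19, adjusted p = 0.00425). In Panc10.05 the copy had 39 to 67 counts while ICOSLG had 1 to 14, and in BxPC3 both had at most 3.

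VTCN1 (ENSG00000134258, chromosome 1, 117143587 to 117210960, minus strand) was near its detection limit everywhere. In Panc10.05 it had 9 and 6 counts in NC, 5 and 6 in P1-a2, and 16 and 29 in P2-a8. It passed the filter on low counts there through P2-a8 alone, the group where it is high, so these values are given with no test. BxPC3 had 7 to 37 VTCN1 counts with no call, and ASPC1 at most 4. CD80 (ENSG00000121594, chromosome 3, 119524293 to 119559602, minus strand) never exceeded 2 counts, with 0 in all 20 libraries of BxPC3 and ASPC1. A count of 0 allows up to 3 counts, or 0.0585 to 0.116 CPM. Intervals and floors cover counting error only, and the floor for HHLA2 in BxPC3 NC does not cover it in full.

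Per kilobase of exon, CD274 led in all 3 Panc10.05 groups, while the leading member differed between groups in BxPC3 and ASPC1. In Panc10.05 NC the order of mean levels was CD274 (38.2 CPM per kb), PDCD1LG2 (14.1) and CD276 (8.99), with HHLA2 at 0.00331. With P1-a2 it was CD274 (22.0), HHLA2 (18.9), CD276 (6.66) and PDCD1LG2 (2.42), and with P2-a8 CD274 (22.6), CD276 (8.93), HHLA2 (7.83) and PDCD1LG2 (5.56). In BxPC3 NC, CD276 led with 11.7 CPM per kb ahead of CD274 with 2.19. With P1-a2, HHLA2 led with 13.7 (11.8 and 15.5 in its libraries) ahead of CD276 with 8.83 (8.32 and 9.35). With P2-a8, CD276 led with 8.95 as in NC, ahead of CD274 with 1.51 and HHLA2 with 1.10. In ASPC1 sgNC, HHLA2 led with 21.7 CPM per kb over CD276 with 13.5. In sgP1 they overlapped, at 11.3 to 24.4 for HHLA2 and 10.6 to 17.1 for CD276. In sgP2, HHLA2 led with 23.8 over CD276 with 10.9. In sgDual the order turned, with CD276 at 17.0 and HHLA2 at 3.44.

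**Figure D4:**
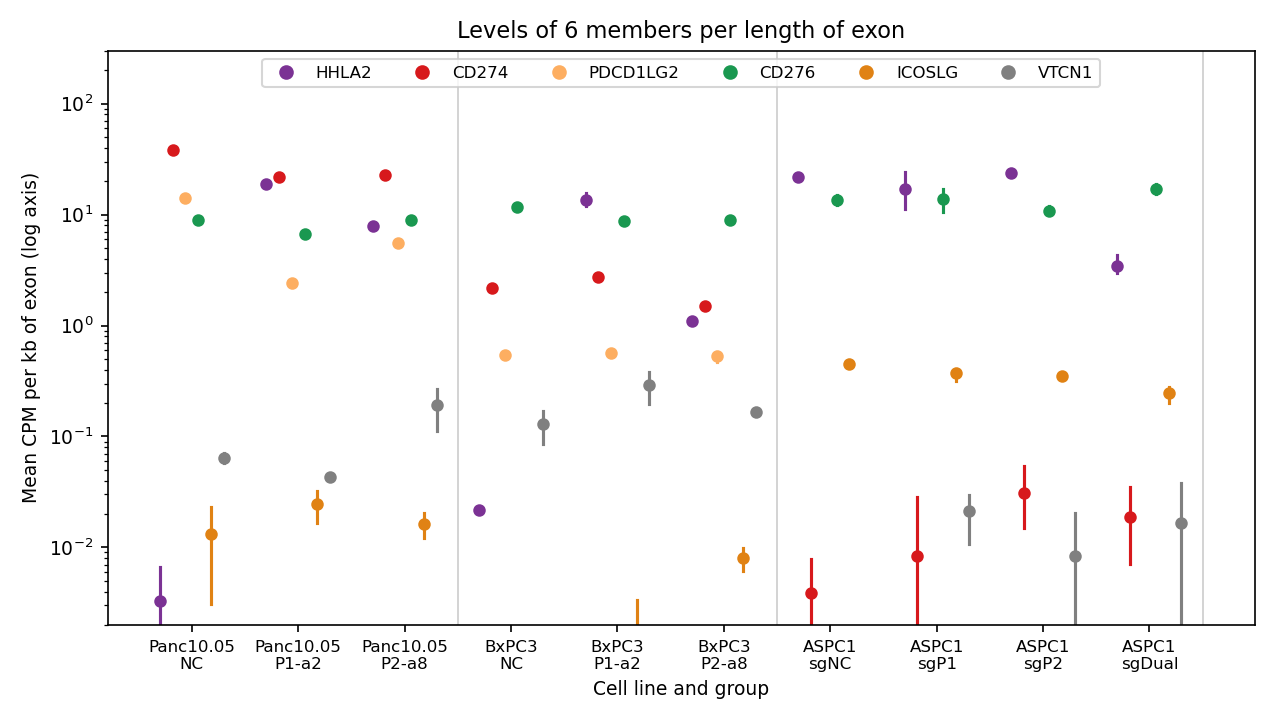
Mean CPM per kilobase of exon (log axis; length is the union of GENCODE v29 exons) of HHLA2, CD274, PDCD1LG2, CD276, ICOSLG and VTCN1 in each group. Points are group means, vertical lines run from the lowest to the highest library (down to the axis where the lowest is 0), and means of 0 are not drawn. HHLA2 led in ASPC1 sgNC at 21.7 and CD274 led in all 3 Panc10.05 groups.

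The members called are given here beside the share of all genes called, with HHLA2 left aside in the induced lines. VTCN1 is also left aside in Panc10.05, where it passed the filter through P2-a8 alone. A filter on low counts passed 5 members in Panc10.05 and BxPC3 (HHLA2, CD274, PDCD1LG2, CD276, VTCN1) and 3 in ASPC1 (HHLA2, CD276, ICOSLG). In Panc10.05, CD274, PDCD1LG2 and CD276 all fell with P1-a2 (62.0% of all genes tested passed, in either direction). With P2-a8, CD274 and PDCD1LG2 fell and CD276 did not pass (46.2% of all genes). P1-a2 was below P2-a8 for PDCD1LG2 and CD276, and CD274 did not pass (46.9%). In BxPC3, 1 of the 4 tested members other than HHLA2 fell with P1-a2 (32.1% in either direction, 2636 of 17635 genes downward). With P2-a8 2 fell (6.99%, 474 downward). There 1 was higher with P1-a2 than with P2-a8 (22.5%, 2054 upward). In ASPC1, 0 of 3 members passed for sgP1 by edgeR (0.265% of all genes; 0 at an unadjusted p under 0.05; 0 by DESeq2). For sgP2 also 0 of 3 passed by edgeR (3.42% of all genes; 1 at an unadjusted p under 0.05; 0 by DESeq2). For sgP2 against sgP1 again 0 of 3 passed by edgeR (4.30% of all genes; 2 at an unadjusted p under 0.05; 0 by DESeq2). The comparisons within a line share their control libraries.

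The difference in response between Panc10.05 and BxPC3 was itself tested for CD274, PDCD1LG2 and CD276 in a joint fit. VTCN1 is left aside, because its Panc10.05 values are given with no test. For P1-a2 against NC, CD274 responded lower in Panc10.05 by -1.08 on the log2 scale (SE 0.11, adjusted p = 3.07e-08). PDCD1LG2 did so by -2.57 (SE 0.25, adjusted p = 2.26e-08), where 36.4% of all genes passed. CD276 gave -0.01 (SE 0.10, adjusted p = 0.968). For P2-a8 against NC, PDCD1LG2 (-1.29, SE 0.25, adjusted p = 0.00048) and CD276 (0.38, SE 0.10, adjusted p = 0.00781) passed (23.5% of all genes). CD274 did not (-0.21, SE 0.11, adjusted p = 0.212). For P1-a2 against P2-a8 all of them passed (22.3% of all genes). CD274 gave -0.88 (SE 0.11, adjusted p = 4.48e-06), PDCD1LG2 -1.29 (SE 0.25, adjusted p = 0.000564) and CD276 -0.39 (SE 0.10, adjusted p = 0.00708). Line, dose and control construct changed together in this test and cannot be told apart.

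A list of 15 relatives, the other B7 and butyrophilin genes, included some that moved in the direction of HHLA2. NCR3LG1 (B7-H6, the ligand of the NK receptor NKp30) rose with P1-a2 from 4.34 to 14.7 CPM in Panc10.05 (log2FC 1.75, SE 0.13, adjusted p = 6.25e-16) and from 12.3 to 28.6 CPM in BxPC3 (1.204, SE 0.13, adjusted p = 3.47e-05). It fell from 65.8 to 32.3 CPM with sgDual in ASPC1 (-1.03, SE 0.13, adjusted p = 3.6e-05). BTN1A1, BTNL3 and BTNL8, butyrophilin genes of the same superfamily, had 0 counts in NC of both induced lines. Where they passed the filter on low counts in these lines it was through induced groups, so their values there are given with no test. BTNL8 did not pass it in Panc10.05. In BxPC3 BTN1A1, BTNL3 and BTNL8 read 0.999, 2.52 and 2.96 CPM with P1-a2 and 0.356, 0.359 and 0.345 CPM with P2-a8. In Panc10.05 BTN1A1 read 0.200 CPM with P1-a2 and 0.899 CPM with P2-a8. BTNL3 there read 0.0109 CPM with P1-a2 (1 count in all) and 0.322 CPM with P2-a8, and BTNL8 0.142 and 0.110 CPM. BTNL3 thus stayed near 0 with P1-a2 in Panc10.05, unlike HHLA2. BTNL8 fell in ASPC1 from 0.862 to 0.208 CPM with sgDual (-2.03, SE 0.47, adjusted p = 0.00371). BTNL3 and BTNL8 resemble each other closely, as do BTN3A1, BTN3A2 and BTN3A3, so reads may be split among them.

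BTN3A1 and BTN3A3, which take part in the sensing of phosphoantigens by gamma-delta T cells, moved in the opposite direction. BTN3A3 fell from 14.9 to 2.88 CPM with P1-a2 in Panc10.05 (log2FC -2.36, SE 0.13, adjusted p = 5.07e-20) and rose from 1.93 to 5.91 CPM with sgDual in ASPC1 (1.61, SE 0.24, adjusted p = 0.000133). BTN3A1 fell from 27.9 to 7.02 CPM with P1-a2 in Panc10.05 (-1.98, SE 0.10, adjusted p = 3.49e-21) and rose from 7.76 to 15.2 CPM with sgDual in ASPC1 (0.97, SE 0.29, adjusted p = 0.018). Of the 15 relatives, 10 were tested in Panc10.05. There 7 fell with P1-a2 (62.0% of all genes called in either direction, 5265 of 17247 downward) and 6 with P2-a8 (46.2%, 3889 downward). In BxPC3 3 of 12 fell with P1-a2 (32.1% in either direction, 2636 of 17635 downward) and 0 with P2-a8 (6.99%, 474 downward). Butyrophilin genes at 0 in NC are among those tested. They entered through induced groups and could only rise against NC, so calls upward are not counted in the induced lines. In ASPC1 sgDual, 6 of 10 rose and 2 fell (median 0.42, all genes 0.00; 35.6% of all genes called), but with no filter on low counts 3 of 13 rose and 2 fell.

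The genes of interferon-gamma signalling and PD-L1 control had more calls downward than upward with P1-a2 in both induced lines. In Panc10.05, 12 of 17 tested fell and 2 rose (median log2FC -0.45, all genes 0.02; 62.0% of all genes called), and in BxPC3 12 of 20 fell and 2 rose (median -0.36, all genes -0.01; 32.1% of all genes called). In Panc10.05 these included the transcription factor IRF9 (16.0 to 2.95 CPM; -2.45, SE 0.13, adjusted p = 3.27e-20), the MHC class I activator NLRC5 (112 to 38.2 CPM; -1.55, SE 0.07, adjusted p = 3.26e-20) and the guanylate-binding protein gene GBP2 (4.22 to 1.91 CPM; -1.14, SE 0.18, adjusted p = 4.19e-07). In BxPC3 the tryptophan-degrading enzyme IDO1 fell most (6.81 to 1.26 CPM; -2.43, SE 0.19, adjusted p = 3.33e-06), then NLRC5 (-1.358, SE 0.12, adjusted p = 1.17e-05), the chemokine CXCL10 (-1.27, SE 0.18, adjusted p = 0.000566) and the feedback inhibitor SOCS3 (-1.10, SE 0.09, adjusted p = 6.95e-06). CD274 fell with this list in Panc10.05, whereas in BxPC3 its P1-a2 libraries stood above NC. With P2-a8, 9 of 17 fell and 4 rose in Panc10.05 (46.2% of all genes called), and 5 of 20 fell in BxPC3 with none higher (6.99%), or 8 of 21 with no filter on low counts.

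In ASPC1 sgDual 7 of the 18 genes tested rose, 1 fell and 10 did not pass (median 0.34, all genes 0.00; 35.6% of all genes called). IRF1, a transcriptional activator of CD274, rose from 22.9 to 39.9 CPM (log2FC 0.80, SE 0.12, adjusted p = 0.000139), the interferon-gamma receptor subunit IFNGR2 from 89.7 to 141 CPM (0.66, SE 0.08, adjusted p = 2.66e-05), and CMTM6, which protects PD-L1 protein from degradation, from 85.9 to 123 CPM (0.52, SE 0.08, adjusted p = 0.000164). The mean of CMTM4 went the other way, from 66.2 CPM in sgNC to 46.9 in sgDual. CD274 RNA stayed at 1 to 5 counts in the sgDual libraries. With sgP2, 2 of 18 fell, GBP1 (-1.54, SE 0.32, adjusted p = 0.0184) and IRF1 (-0.44, SE 0.11, adjusted p = 0.0488), against 3.42% of all genes, and with scaling by total counts 1 of 18 did. With sgP1, none of the 18 passed by edgeR (2 at an unadjusted p under 0.05), where 45 genes of the whole table did.

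**Figure D5:**
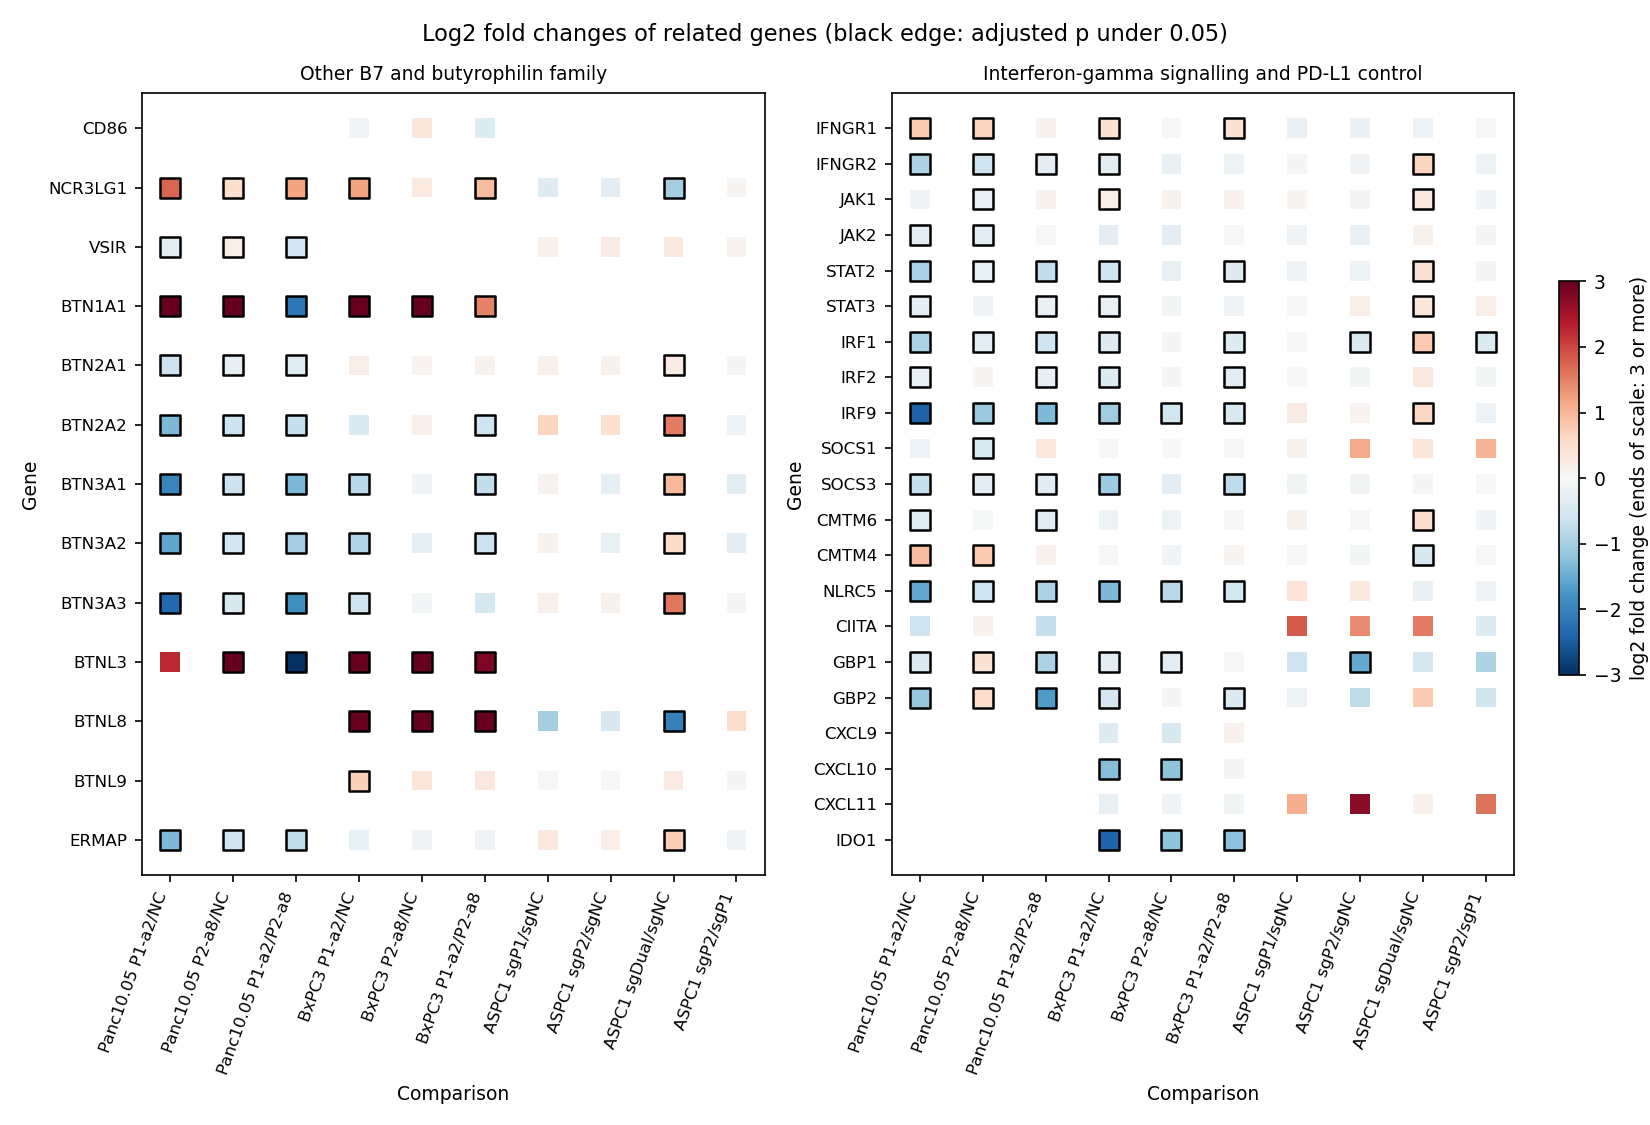
Log2FC of the tested relatives of the members (left) and of the genes of interferon-gamma signalling and PD-L1 control (right) in the 10 comparisons. Squares are genes, red is higher and blue lower in the group named first, black edges mark an adjusted p under 0.05 by edgeR, blank cells were not tested and colours saturate at 3. With P1-a2 12 genes of the right-hand list fell in each induced line, and with sgDual 7 rose. Black edges of BTN1A1, BTNL3 and BTNL8 in the induced lines are not read as calls, because these genes entered through induced groups.

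Among 20 other ligands with which tumour cells engage immune cells, LGALS9 changed in opposite directions in the induced lines. LGALS9 (galectin-9, a ligand of TIM-3) rose with P1-a2 from 2.09 to 9.25 CPM in Panc10.05 (log2FC 2.14, SE 0.15, adjusted p = 2.36e-16) and fell from 12.1 to 3.001 CPM in BxPC3 (-2.02, SE 0.17, adjusted p = 8.22e-06). The difference between the lines was 4.16 (SE 0.24, adjusted p = 3.79e-12). It rose from 1.98 to 12.2 CPM with sgDual in ASPC1 (2.62, SE 0.40, adjusted p = 0.000272). PVR, the ligand of TIGIT, rose with P1-a2 from 99.1 to 223 CPM in BxPC3 (1.17, SE 0.07, adjusted p = 3.47e-07). CEACAM1, an inhibitory adhesion molecule, fell from 39.3 to 4.63 CPM with P1-a2 in Panc10.05 (-3.08, SE 0.10, adjusted p = 2.68e-28) and rose to 45.3 CPM with P2-a8 (0.21, SE 0.08, adjusted p = 0.024). CD24, a ligand of Siglec-10, fell from 8.87 to 2.42 CPM with sgDual in ASPC1 (-1.87, SE 0.20, adjusted p = 9.62e-06). In Panc10.05 10 of 16 fell with P1-a2 (62.0% of all genes called, in either direction). Calls upward are not counted there, because CD40 passed the filter on low counts through induced libraries. It read 0.0699 CPM in NC and 0.403 with P1-a2. In BxPC3 4 of 17 rose with P1-a2 and 3 fell (32.1%), and in ASPC1 sgDual 5 of 18 rose and 6 fell (35.6%).

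The receptors of these ligands were at or near 0 apart from RGMB. Both HHLA2 receptors were at or below 0.0136 CPM in every group mean (TMIGD2) or 0.0109 CPM (KIR3DL3). CTLA4 had 0 counts throughout. RGMB, a PD-L2 partner that is a bone morphogenetic protein co-receptor of many cell types, had group means of 17.9 to 46.2 CPM. PDCD1, which passed the filter on low counts through its induced libraries, had means of 0.631 CPM with P1-a2, 0.373 with P2-a8 and 0.0720 in NC in Panc10.05, and is given with no test.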

How the data were processed

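A directional poly(A) kit and 150 bp paired reads were used, per the labels' protocols. The authors deposited 1 table of raw gene counts per cell line. The submitters' processing notes name STAR 2.7.9a, cutadapt 1.16, featureCounts 1.6.3, DESeq2 1.36.0 and GRCh38. The annotation and strand setting are not given in the sources used here, so reads of overlapping opposite genes may not be separated.

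Groups came from genotype labels and guides from titles. Fits by target in ASPC1 took the 4 libraries of 2 guides as independent. Their SE and p-values therefore ignore that libraries share a guide. Identifiers were matched to symbols for 99.9% of rows in each table. edgeR 4.0.16 (R 4.3.3) was used for each line: filterByExpr by group, TMM scaling to the total count, robust glmQLFit and glmQLFTest, and Benjamini-Hochberg adjustment over all 17247, 17635 or 16992 genes tested, with a threshold of 0.05. CPM were counts over the scaled total. The scripts were checked on simulated counts. Likeness to HHLA2 used log2 CPM with a prior count of 2. Named genes were all members, HNF4A, per list up to 4 genes with the largest non-overlapping change past the threshold, 5 genes most like HHLA2, and neighbours. The members and lists were chosen with earlier results of these data known. One gene of the interferon-gamma list is not reported here and is left out of that list's counts. Replicates carry only numbers, and nothing says they came from separate cultures, so p-values measure the spread between these libraries, which may be technical. Replicate libraries differed beyond sampling noise (chi-square per degree of freedom 5.53 to 26.9), so none was counted as a duplicate. Alternatives were other scaling, no filter, DESeq2 1.42.0, fewer groups, left-out libraries and guides, and a replicate block.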

Additional observations from a re-analysis of the deposited data

Results flagged for a closer look

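CD276 in the ASPC1 sgP2 libraries had 1 library apart from the other 3: sgP2G replicate 1 at 65.8 CPM against 57.8 to 59.1 CPM. Its gap to the nearest library was 0.83 of the group's range, just past Dixon's 95% limit for 4 samples. Of 9 such group values 1 was past the limit, and chance gives about 1 in 20.

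The responses of CD274, PDCD1LG2 and CD276 were tested for a difference between Panc10.05 and BxPC3. The differences given below for these genes passed an adjusted p of 0.05 (edgeR quasi-likelihood test). CD276 for P1-a2 against NC and CD274 for P2-a8 against NC did not pass. For P1-a2 against NC the difference, Panc10.05 minus BxPC3 on the log2 scale, was -1.08 for CD274 and -2.57 for PDCD1LG2. For P2-a8 against NC it was 0.38 for CD276 and -1.29 for PDCD1LG2. For P1-a2 against P2-a8 it was -0.39 for CD276, -0.88 for CD274 and -1.29 for PDCD1LG2. VTCN1 differed there by -2.86 on at most 37 counts per library. This value is given with no test, because VTCN1 passed the filter in Panc10.05 through P2-a8 alone.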

How the results depend on the processing

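Of the alternatives for single members, HHLA2 in the induced lines aside, 390 kept direction and side of the threshold, 14 reversed, 7 gained and 8 lost the call. These counts include VTCN1 in Panc10.05, whose values are given with no test. The causes were not tested. No reversed value had been called. Each reversal below, as log2FC, came from leaving out 1 library or guide. With 1 library left out, CD276 ranged from -0.08143 to 0.07177 in Panc10.05 P2-a8 against NC (reversed without NC replicate 1), from -0.09367 to 0.07093 in BxPC3 P1-a2 against P2-a8 (without P1-a2 replicate 1 or either P2-a8 library) and from -0.1132 to 0.1817 in sgP1 against sgNC (without either sgP1E library or sgNC replicate 2). PDCD1LG2 in BxPC3 ranged from -0.008504 to 0.1047 for P1-a2 against NC (without P1-a2 replicate 2), and reversed without P2-a8 replicate 1 for P2-a8 against NC (-0.2252 to 0.07644) and P1-a2 against P2-a8 (-0.02534 to 0.275). VTCN1 in BxPC3 P2-a8 against NC ranged from -0.06102 (without NC replicate 1) to 0.9255. Without a guide, CD276 in sgP1 against sgNC gave -0.2609 (sgP1E), HHLA2 there 0.00404 (sgP1J), and ICOSLG in sgP2 against sgP1 0.06563 (sgP1J).

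When an absolute log2FC of at least 1 was also required, the genes called numbered 3385, 1663 and 1455 in Panc10.05 (P1-a2 against NC, P2-a8 against NC, P1-a2 against P2-a8; 10699, 7976 and 8091 without it), 1243, 364 and 526 in BxPC3 (5656, 1232 and 3963), and 23, 185, 1539 and 161 in ASPC1 (sgP1, sgP2, sgDual, sgP2 against sgP1; 45, 581, 6048 and 731). Members called then numbered 1 in Panc10.05 P1-a2 against NC, 0 in each BxPC3 comparison (by edgeR) and 1 in sgDual. With VTCN1 left aside, PDCD1LG2 also met both limits in Panc10.05 P2-a8 against NC (-1.35) and P1-a2 against P2-a8 (-1.19). DESeq2 called 242, 1132 and 1272 genes in sgP1, sgP2 and sgP2 against sgP1. Fits with only the 2 groups called 7, 1103 and 189. No filter on low counts gave 1982 in BxPC3 P2-a8 against NC and 81 in sgP1.

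The labels give same-numbered replicates only a number. Their deviations correlated between -0.012 and 0.007 in Panc10.05, 0.073 and 0.131 in BxPC3, and 0.077 and 0.339 in ASPC1. Every ASPC1 pair was thus positive. The main fits carried no replicate block, and whether same-numbered ASPC1 libraries shared a batch was not tested. With a replicate block, genes called numbered 2886 and 5996 in BxPC3 P2-a8 against NC and P1-a2 against P2-a8, and 127, 972 and 1204 in sgP1, sgP2 and sgP2 against sgP1. In BxPC3 P1-a2 against NC 2 members passed with the block, CD274 with an adjusted p of 0.038. Among the lists, the block gave 10 of 20 interferon-gamma genes lower in BxPC3 P2-a8 against NC, and 8 of 17 other ligands higher and 5 lower in P1-a2 against NC.

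Without guide sgP1E or sgP1J, sgP1 had 262 and 1242 genes called, with 1 member without sgP1E. Without sgP2D or sgP2G, sgP2 had 322 and 293. For sgP2 against sgP1 the counts were 2764 (and 1 member) without sgP1E, 306 without sgP2D and 411 without sgP2G, and 1 member passed without sgP1J. Leaving out 1 library gave 495 to 927 genes in BxPC3 P2-a8 against NC (1 to 2 members), 2540 to 3013 in P1-a2 against P2-a8, 1 to 144 in sgP1, 57 to 466 in sgP2, 2775 to 5555 in sgDual and 324 to 1208 in sgP2 against sgP1 (0 to 1 members). Scaling by RLE or total counts moved the median of all genes by less than 0.05 on the log2 scale. VTCN1 and CD80, and CD274 in ASPC1, are limited by depth.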
